A study of Mus musculus with 12 samples.

Results

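The NMDA receptor subunits were examined in brains of newborn female mice with and without KIS, a kinase encoded by Uhmk1. NMDA receptors are glutamate-gated channels built from several subunits. The genes were selected by symbol among the main probesets of an Affymetrix exon array, where a probeset is a small group of probes that usually lies within a single exon. Of the 7 subunit symbols, 6 were matched (Grin1, Grin2a, Grin2b, Grin2c, Grin2d and Grin3b), with 118 of 221417 main probesets and 6 of 17550 genes. Grin3a was not matched in the table and was not analysed here. The array table was made from whole brains of 6 wildtype (KIS +/+) and 6 KIS-ko (KIS -/-) newborn females, 1 array per brain. Each of 6 litters gave 1 wildtype and 1 KIS-ko sister, and knock-out mice had been crossed back to the C57BL6/N strain. No treatment was given, and each brain was powdered whole, so that a change in 1 region is diluted by all others. In such a bulk sample, fewer cells of a type and less RNA per cell cannot be told apart.

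Most NMDA receptors need both glutamate and a co-agonist, glycine or D-serine, to open, and they admit calcium mainly when the membrane is depolarized. GluN1, made from Grin1, is the obligatory subunit and carries the co-agonist site, the GluN2 subunits made from Grin2a to Grin2d carry the glutamate site and set the kinetics of the channel, and GluN3 subunits bind glycine and reduce calcium entry. The GluN2 subunits follow each other during rodent brain development: Grin2b is widespread and Grin2d is found in diencephalon and brainstem before and around birth, while Grin2a rises over the forebrain after birth and Grin2c in the maturing cerebellum. Grin3b is known mainly from motor neurons.

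Gene values are log2(signal + 16) averaged over the probesets of a gene, where the signal is the linear intensity that was deposited for each probeset. Probesets differ in how strongly they bind their target, so that levels of different genes were not compared as amounts. A probeset was counted as above background when its mean signal exceeded 713, the 95th percentile of 5222 probesets placed in introns, whose median was 114. Of all probesets kept, 44.6% were above this background.

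The promoter windows of a well detected subunit gene, Grin1, and of the least detected one, Grin3b, are shown because their CpG content differs. RefSeq windows of 300 bases around the transcription start (assembly GRCm38.p6) were found for 4 of the 6 genes, Grin1, Grin2c, Grin2d and Grin3b. The Grin1 window lies at chr2:25319138-25319437 on the minus strand and the Grin3b window at chr10:79970474-79970773 on the plus strand. They are written 5′ to 3′, with each CpG dinucleotide in capitals.
Grin1: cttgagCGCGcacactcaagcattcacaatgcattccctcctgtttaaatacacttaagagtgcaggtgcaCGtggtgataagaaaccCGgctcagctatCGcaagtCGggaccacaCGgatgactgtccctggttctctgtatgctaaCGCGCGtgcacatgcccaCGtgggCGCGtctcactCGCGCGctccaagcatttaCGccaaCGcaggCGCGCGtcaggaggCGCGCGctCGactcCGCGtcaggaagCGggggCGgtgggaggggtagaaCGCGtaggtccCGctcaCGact
Grin3b: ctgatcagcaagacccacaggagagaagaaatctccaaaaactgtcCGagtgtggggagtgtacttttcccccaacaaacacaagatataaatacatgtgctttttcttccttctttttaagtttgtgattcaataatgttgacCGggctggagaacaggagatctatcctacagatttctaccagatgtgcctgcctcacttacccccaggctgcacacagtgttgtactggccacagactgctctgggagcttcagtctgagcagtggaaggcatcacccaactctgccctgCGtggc
The Grin1 window held 33 CpG dinucleotides and that of Grin3b held 3, against a median of 7 over 32851 windows of this length. The windows of Grin2c and Grin2d held 22 and 12. The GC box GGGCGG, searched on both strands, occurred 1 time in the window of Grin1 and 3 times in that of Grin2c, and 35.7% of all windows held at least 1. These letters were not found in the windows of Grin2d and Grin3b. These are descriptions of sequence, and no promoter activity was measured.

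Grin1 and Grin2b were detected along nearly their whole length in the newborn brain. Of the 23 Grin1 probesets 21 were above background, and of the 13 Grin2b probesets 12. Mean wildtype signals ranged from 471 to 4855 over the Grin1 probesets, with a median of 1899, and from 355 to 10714 over those of Grin2b, with a median of 3561. Grin2d was above background at 17 of 27 probesets, with signals from 292 to 3126 and a median of 1045.

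Grin2a lay near the background limit. Only 4 of its 16 probesets were above it, with signals from 298 to 1019 and a median of 594, although all 16 were above the median of the intron controls. Grin2c was above background at 2 of 23 probesets, with a median signal of 181. Its highest probeset, the most 5′ one, reached 1149 and its lowest 71.4. Grin3b was above background at 1 of 16 probesets, and this probeset, with a signal of 1017, is listed on the strand opposite to the gene. The other Grin3b probesets reached at most 505 in wildtype brains and had signals as low as 44.4. In total 57 of the 118 subunit probesets were above background.

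**Figure D1:**
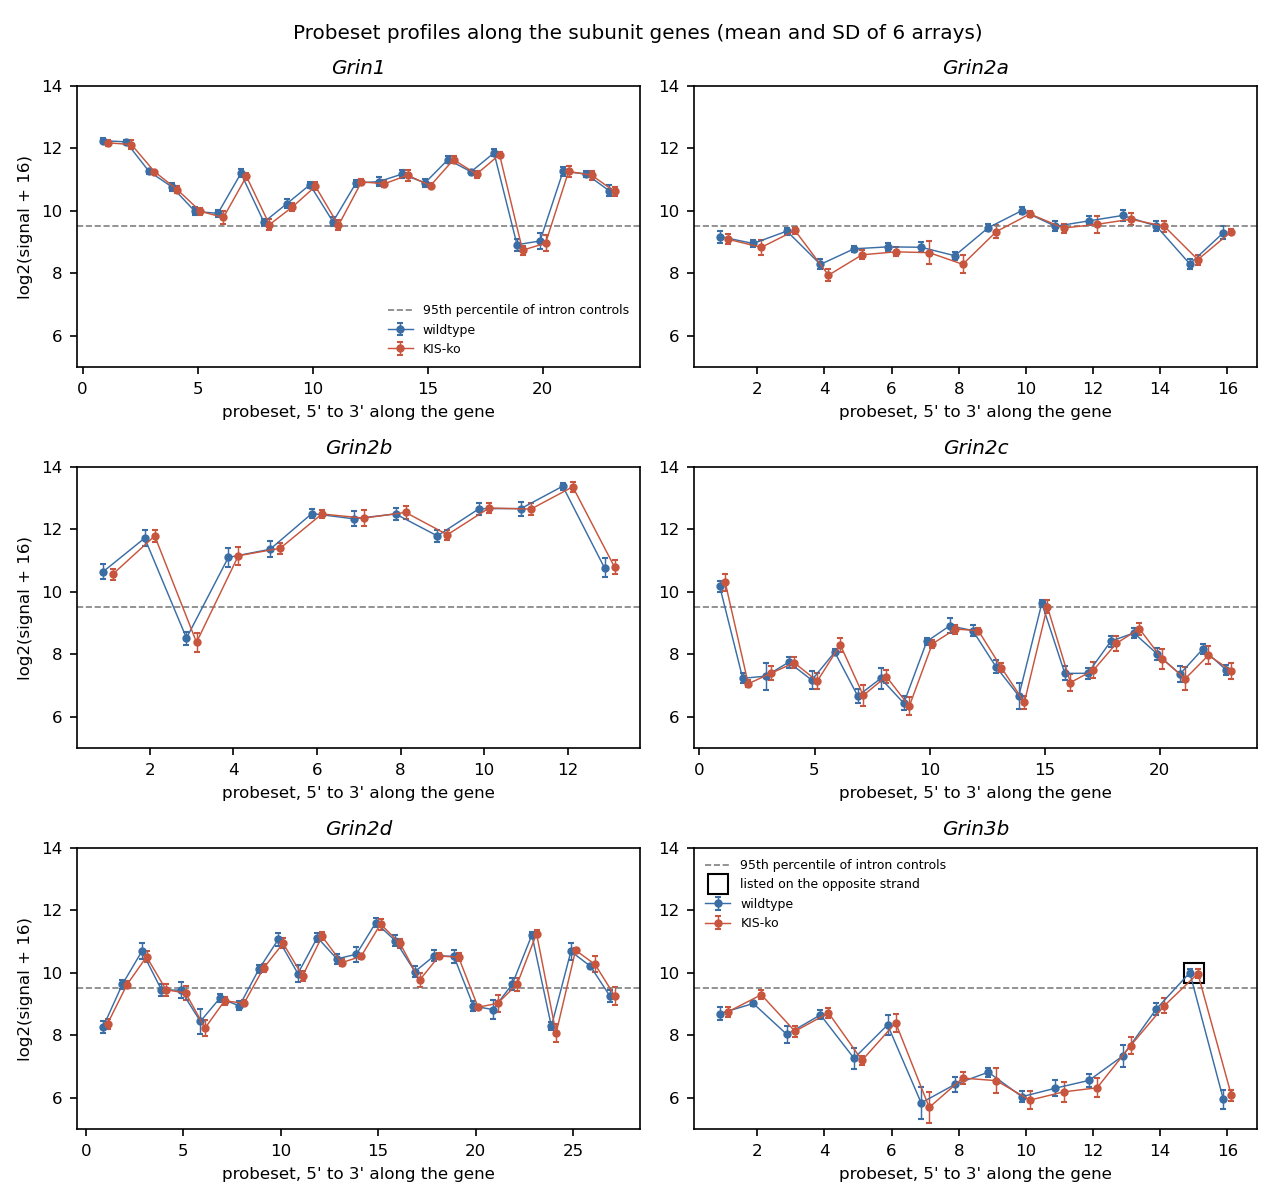
Probeset signals along the 6 subunit genes, as log2(signal + 16) against the order of the probesets from 5′ to 3′, with points and bars for the mean and SD of 6 wildtype and 6 KIS-ko arrays; the dashed line is the background limit and the square marks the Grin3b probeset listed on the opposite strand. The profiles of the genotypes overlap closely, Grin1 and Grin2b run above the line except at 2 and 1 probesets, and Grin2c and Grin3b run mostly below it.

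The profiles were uneven along the genes. In Grin1, 2 neighbouring probesets near the 3′ end stood far below those around them. The first, at chromosome 2, 25149963 to 25150052, gave 471 ± 61.5 (SD, n = 6) in wildtype brains, and the second, at 25147890 to 25147993, gave 516 ± 84.7 (SD, n = 6). The probeset just 5′ of them gave 3704 and the one just 3′ gave 2454. In Grin2b, the probeset at chromosome 6, 135793114 to 135793217, gave 355 ± 51.2 (SD, n = 6) between neighbours at 3408 and 2222. Positions are those of the deposited table, whose genome build is not named in the sources used here, and no exon was assigned to them. Whether these low signals come from the transcripts or from the probes was not tested.

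The first question was whether loss of KIS changed the amount of any subunit transcript. Uhmk1 itself, the deleted gene, fell by 2.11 (SE 0.068) on the log2 scale in KIS-ko brains and was lower in 6 of 6 litters, with a limma adjusted p of 2.91e-07. It was the single gene called at an adjusted p under 0.05, or 0.00579% of the 17279 genes tested. Array medians of the signal lay between 460 and 526, and the median gene differed by -0.036 between genotypes. None of the 62 markers of cell types and brain regions measured passed the adjusted test, and at an unadjusted p under 0.05 4 were lower, among them the astrocyte gene Gfap at -0.27, and 1 was higher. The astrocyte, dividing cell and endothelium markers were negative in 4 of 4 each, with medians of -0.094, -0.12 and -0.071. Striatum markers were negative in 2 of 3, with a median of -0.13. Of all 62 markers 44 were negative, against 69.8% of all genes. The part of these markers in the subunit values was not tested. The 7 neuronal markers were all above background, and their mean level ranged from 12.68 to 12.78 in wildtype and from 12.64 to 12.76 in KIS-ko arrays.

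None of the 6 subunit genes was called, and none had an unadjusted p under 0.05, where 4.34% of all genes did so with a lower value in KIS-ko and 1.82% with a higher value. A negative difference was found for 4 of the 6, against 69.8% of all genes. After each array was centred on its median this count was 2 of 6, and after a new quantile normalization 3 of 6.

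Grin1 values in wildtype brains were 10.61 at the lowest, 10.81 at the median and 10.87 at the highest, and in KIS-ko brains 10.62, 10.71 and 10.81. The ranges overlapped almost fully. The difference was -0.063 (SE 0.056) on the log2 scale, with a limma adjusted p of 0.712, and the 95% interval of the fold ran from 0.879 to 1.04. The KIS-ko sister was lower in 4 of 6 litters, and the largest difference, -0.25, was that of litter 2. Without litter 2 the Grin1 difference was -0.026, without litter 6 -0.041 and without litter 3 -0.090. It was -0.0070 after arrays were centred, -0.029 after a new quantile normalization and -0.033 with the median over probesets.

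Grin2b, the glutamate-binding subunit most characteristic of the young brain, had the genotype difference nearest to 0 of the 6 genes in the values as deposited. Wildtype values were 11.30, 11.75 and 11.89 (lowest, median and highest) and KIS-ko values 11.35, 11.73 and 11.85. The genotypes overlapped over nearly their whole range, with a difference of 0.0044 (SE 0.052), an adjusted p of 0.977 (limma) and a fold interval of 0.925 to 1.09. The sister without KIS was higher in 4 of 6 litters. After arrays were centred the difference was 0.060, and after a new quantile normalization 0.032, so that Grin2b was not the nearest to 0 under these scalings. Nor was it nearest without litter 6 (0.037), with a stricter filter on variation (0.016), with dim probesets left out (0.016) or with the study's weighted fold change (0.018). Without litter 1, 2, 3 or 5 the Grin2b difference turned negative, at -0.015, -0.0048, -0.012 and -0.0036. Without litter 4 it was 0.026.

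Grin2a, the subunit that rises after birth, had the most negative difference of the 6 genes in the values as deposited, -0.11 (SE 0.073), with an adjusted p of 0.687 (limma) and a fold interval of 0.831 to 1.04. Its wildtype values were 9.05, 9.14 and 9.31 (lowest, median and highest) and its KIS-ko values 8.79, 9.07 and 9.23. Most of the difference came from litter 6, whose KIS-ko sister gave the lowest value of all 12 and whose wildtype sister gave the highest. Without litter 6 the difference was -0.023, and Grin1, Grin2c and Grin3b were then more negative. It was -0.050 after arrays were centred, -0.053 after a new quantile normalization and -0.035 with the median over probesets, where Grin2d was more negative at -0.055.

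The differences of Grin2c and Grin2d were below their standard errors. Grin2c values were 7.81, 7.87 and 7.94 (lowest, median and highest) in wildtype and 7.75, 7.84 and 7.88 in KIS-ko brains, a difference of -0.043 (SE 0.047) with an adjusted p of 0.747 (limma) and a fold interval of 0.902 to 1.04. For Grin2d they were 9.83, 9.95 and 10.05 in wildtype and 9.77, 9.91 and 10.01 in KIS-ko brains. Here the difference was -0.039 (SE 0.060), with an adjusted p of 0.808 (limma) and a fold interval of 0.888 to 1.07. Either gene was lower in the KIS-ko sister in 3 of 6 litters. The sign of the Grin2d difference turned under both other scalings of the arrays, and that of Grin2c when arrays were centred. Grin2d was 0.0096 without litter 2, and Grin2c was 0.010 with dim probesets left out, -0.024 without litter 5, -0.028 without litter 3 and -0.013 with a stricter filter on variation.

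Grin3b, whose probesets lay mostly near the intron controls, gave 7.47, 7.59 and 7.82 (lowest, median and highest) in wildtype and 7.54, 7.62 and 7.83 in KIS-ko brains. Its difference was 0.034 (SE 0.065), with an adjusted p of 0.846 (limma) and a fold interval of 0.927 to 1.13. Here too litter 6 stood apart. The difference was -0.031 without it, and it was 0.039 without the probeset of the opposite strand. It was 0.090 after arrays were centred, 0.071 after a new quantile normalization and 0.088 without litter 4. A stricter filter on variation gave 0.11, the study's weighted fold change 0.11 and the median over probesets 0.32. With dim probesets left out the Grin3b difference was -0.028.

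**Figure D2:**
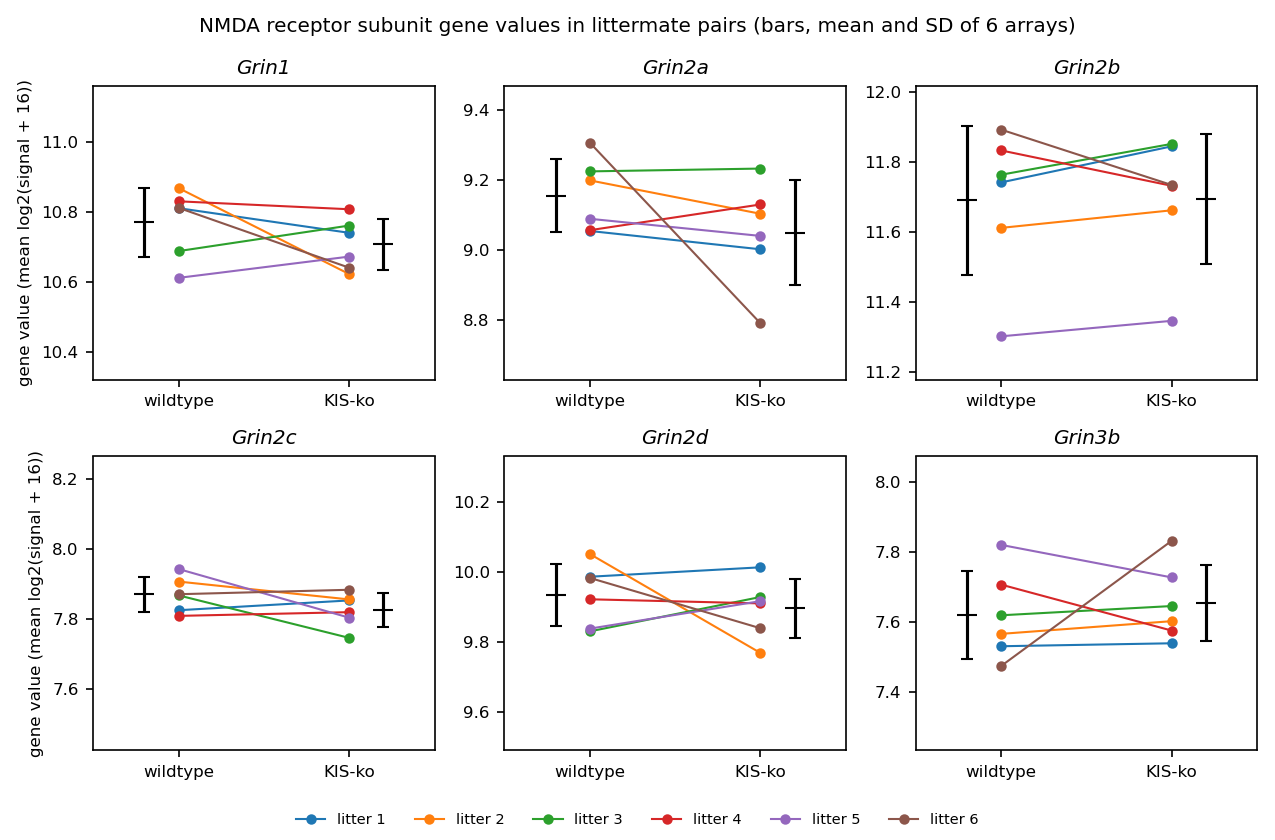
Gene values (mean over probesets of log2(signal + 16)) of the 6 subunits in wildtype and KIS-ko brains, with a line for each pair of sisters and black bars for the mean and SD of 6 arrays; every panel spans the same range. The genotypes overlap in every panel, both Grin2b values of litter 5 (11.30 and 11.35) lie below all others, and litter 6 has the steepest lines for Grin2a and Grin3b.

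For Grin2b, litter 5 stood apart whatever the genotype. Both sisters of litter 5 had lower values, 11.30 in the wildtype and 11.35 in the KIS-ko brain, than all 10 other brains, which lay between 11.61 and 11.89. The SD of the 6 litter means was 0.192, against 0.108 for the SD of the 6 differences within litters, and without litter 5 they were 0.074 and 0.119. Among all genes, the SD of the wildtype values was higher than in 91.9% of genes for Grin2b, and higher than in 7.41% for Grin2c. The SD of Grin2b includes the low wildtype value of litter 5, and its rank without that brain was not computed. The arrays of litter 5 were dim, with median gene values of 8.71 and 8.66, but minus the array median Grin2b was still lowest there, at 2.59 and 2.69 against 2.77 to 3.10. On this scale the thalamus markers (Gbx2, Tcf7l2 and Lhx9) had mean levels of 1.42 and 1.46 in litter 5, within the 1.32 to 1.46 of the others, and the scaffold and trafficking partners of the receptor 1.80 and 1.81, within 1.80 to 1.88. The hindbrain and spinal cord markers (Hoxb3, Hoxb4 and Hoxa5) had 0.77 and 0.93 there, within 0.41 to 0.94. The 5 cerebellum markers stood apart on this scale only, at -0.35 and -0.31 in litter 5 against -0.60 to -0.39. In the values as deposited, their litter 5 levels of 8.36 and 8.35 lay within the 8.22 to 8.41 of the others. Only 1 of these 5 markers, and 0 of the 3 hindbrain and spinal cord markers, had a median signal above background. The part of brain composition in the Grin2b values was not tested.

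Within litter 6, the genes of the family moved in opposite directions. Grin2a differed by -0.52 between the KIS-ko and the wildtype sister, and the differences of its 16 probesets ran from -0.80 to -0.14. In the other litters the Grin2a difference lay between -0.095 and 0.074. Grin3b differed by 0.36 in the same pair and was higher at 12 of 15 probesets, while its differences in the other litters lay between -0.13 and 0.036. The median gene of that pair differed by -0.11, the most negative of the 6 litters, and the astrocyte and dividing cell markers differed by -0.30 and -0.35 in their mean level. Their part in the litter 6 values was not tested.

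The Grin1 and Grin2d differences had the same sign in 5 of 6 litters. In litter 2 they were -0.25 and -0.28, with 23 of 23 Grin1 probesets and 23 of 27 Grin2d probesets lower there. The median gene differed by -0.086 in that pair. The mean levels of the astrocyte, endothelium, striatum and choroid plexus markers differed by -0.30, -0.27, -0.24 and -0.24. Those of the oligodendrocyte lineage and pericyte markers differed by -0.20 each, of the neuronal markers by -0.021 and of the cortex markers by 0.0955. The part of these markers in the Grin1 and Grin2d values was not tested. In litter 6 the Grin1 and Grin2d differences were -0.17 and -0.14, and in litters 3 and 5 both were positive, from 0.061 to 0.098. Over the 12 arrays, after array medians and genotype means were subtracted, Pearson's r was 0.621 between Grin1 and Grin2d and 0.829 between the dimly detected Grin2c and Grin3b. It was -0.461 between Grin2b and Grin2c, but 0.094 without litter 5. Leaving out each litter in turn gave 0.536 to 0.766 for Grin1 and Grin2d and 0.716 to 0.877 for Grin2c and Grin3b. These correlations are descriptions over arrays that share litters, and the same array median was subtracted from both genes of a pair. Those medians ranged from 8.66 to 8.87, while the SD of Grin2c in wildtype brains was 0.050 before the subtraction. Leaving out a litter does not remove this shared term, and its part in these r values was not tested.

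**Figure D3:**
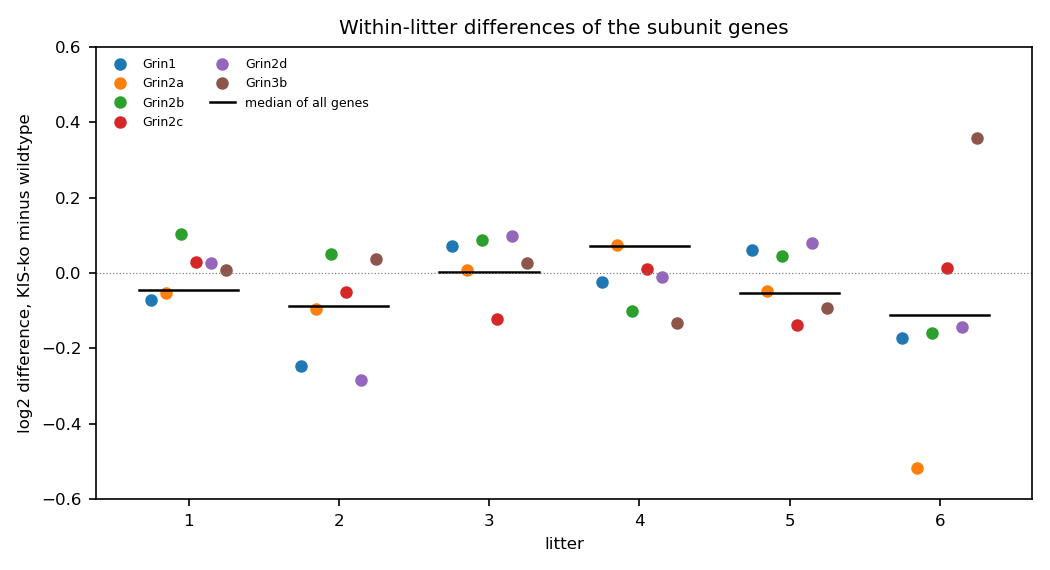
Log2 difference between the KIS-ko and the wildtype sister for each subunit gene (coloured points) in each of the 6 litters, with black bars at the median of all genes in that litter. Points of most litters scatter on both sides of 0, and litter 6 holds the most negative value (Grin2a, -0.52) and the most positive one (Grin3b, 0.36).

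The balance between Grin2a and Grin2b is a measure of receptor maturation, since the first gains on the second after birth. The log2 ratio of their gene values within an array was -2.54 ± 0.20 (SD, n = 6) for the wildtype sisters. In the KIS-ko sisters it was -2.65 ± 0.23 (SD, n = 6). This ratio depends on the binding of the probes and is not a ratio of amounts, but its change can be compared. The change within litters was -0.11 ± 0.17 (SD, n = 6) and was negative in 5 of 6 litters, with a two-sided exact sign-flip p of 0.219, where 0.03125 is the smallest p that 6 pairs allow. In litter 4 the change was 0.17, and in litter 6 it was -0.36. Without litter 6 the mean change was -0.060 (exact p = 0.438), and without litter 4 it was -0.17 (exact p = 0.0625, the smallest that 5 pairs allow). With only the probesets that match 1 place in the genome the change was -0.16 (exact p = 0.125), and with the median over probesets it was -0.051 ± 0.245 (SD, n = 6), also not past the threshold of the exact test.

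Other ratios were described without a test. The ratio of Grin2d to Grin1 had the smallest spread, with a change of 0.024 ± 0.043 (SD, n = 6), higher in 5 of 6 litters, and 0.0088 without litter 1. That of Grin2b to Grin1 changed by 0.067 ± 0.14 (SD, n = 6), and by 0.021 without litter 2. That of Grin3b to Grin1 changed by 0.097 ± 0.26 (SD, n = 6), and by 0.010 without litter 6. The other changes were negative, at -0.043 ± 0.18 (SD, n = 6) for Grin2a to Grin1. They were -0.044 ± 0.15 (SD, n = 6) for Grin2d to Grin2b and -0.048 ± 0.16 (SD, n = 6) for Grin2c to Grin2b.

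The second question was whether single exons of the subunits changed. Of 118 subunit probesets 117 passed the filter on variation, and the one rejected belonged to Grin3b. No subunit probeset was called, where 0.00487% of all probesets tested were, and the lowest adjusted p of a subunit probeset was 0.717 (limma). At an unadjusted p under 0.05, 4 of the 117 were lower and 2 higher in KIS-ko brains, that is 1 Grin2a, 2 Grin2c and 1 Grin2d probesets against 1 Grin2c and 1 Grin3b probeset. Over all probesets these shares were 4.72% and 1.91%. A negative difference was found at 79 of the 117, against 66.2% of all probesets.

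The sign differed between subunits. In Grin1, 22 of 23 probesets had a negative difference, none beyond -0.18, and in Grin2a 13 of 16. In Grin2b the differences were negative at 5 of 13 probesets and ranged from -0.14 to 0.070. In Grin2c they were negative at 15 of 23, in Grin2d at 18 of 27 and in Grin3b at 6 of 15. Probesets of a gene share arrays and are not replicates. The Grin1 difference itself was -0.0070 after arrays were centred on their medians.

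**Figure D4:**
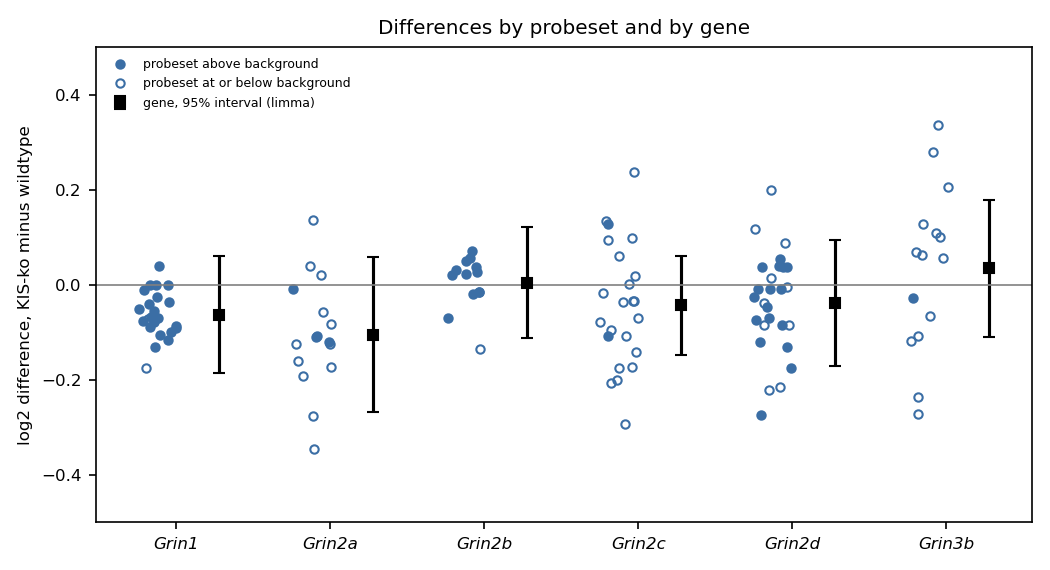
Log2 difference between KIS-ko and wildtype for each subunit probeset (circles, filled when above background) and for each gene (black squares with the 95% interval of limma). The circles of Grin2b lie between -0.14 and 0.070, the circles of the dim genes Grin2c and Grin3b spread more widely, and all gene intervals include 0.

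A shift of 1 probeset against the rest of its gene was then examined with a splicing index, the log2 value of a probeset minus the mean of its gene. Such an index would move if an exon were included more or less often. No subunit probeset was called, where 0.000985% of all probesets tested were, and the lowest adjusted p was 0.658 (limma). At an unadjusted p under 0.05 the index of 9 of the 117 differed, against 6.11% of all probesets: 2 in Grin2a, 3 in Grin2c, 2 in Grin2d and 2 in Grin3b, and none in Grin1 or Grin2b.

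The lowest of these p values was that of a Grin2a probeset near the 3′ end, at chromosome 16, 9578184 to 9578545. Its signal was 302 ± 36.4 (SD, n = 6) in the wildtype and 333 ± 37.8 (SD, n = 6) in the KIS-ko group. Its index was higher by 0.24 (SE 0.051) and was higher in 6 of 6 litters, with an unadjusted p of 0.0013 and an adjusted p of 0.658 (limma). The table marks this probeset and the 5 others at the 3′ end of Grin2a as matching more than 1 place. The 10 that match 1 place had a median difference of -0.14, and these 6 a median of -0.033.

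A second Grin2a probeset, at 9669802 to 9669909 the fourth from the 5′ end, went from 298 ± 33.6 (SD, n = 6) to 232 ± 31.1 (SD, n = 6). Its log2 difference was -0.34 (SE 0.11), with an adjusted p of 0.742 (limma), and it was lower in 5 of 6 litters. Both signals lie below the background limit. The gene difference of Grin2a over the probesets that match 1 place was -0.16 (SE 0.072), with an unadjusted p of 0.055 and an adjusted p of 0.687 (limma).

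In Grin2d the probeset at chromosome 7, 53108613 to 53108685, was the only one above background with an unadjusted p under 0.05. It gave 1045 ± 123 (SD, n = 6) in the wildtype and 865 ± 135 (SD, n = 6) in the KIS-ko group, a difference of -0.27 (SE 0.10), with an unadjusted p of 0.0271 and an adjusted p of 0.751 (limma). Its index was lower in 6 of 6 litters. The index of the Grin2d probeset at 53088714 to 53088753 also was lower in 6 of 6 litters, with a difference of -0.18 and a wildtype signal of 298.

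In Grin3b the probeset at chromosome 10, 79433698 to 79433789, near the 5′ end, went from 505 ± 32.8 (SD, n = 6) to 618 ± 67.2 (SD, n = 6). It was higher in 6 of 6 litters, with a difference of 0.28 (SE 0.074) and an adjusted p of 0.717 (limma). The index of the probeset at 79438393 to 79438523 differed by -0.31, at signals of 97.7 and 80.9, below the median of the intron controls. In Grin2c, the 3 probesets at an unadjusted p under 0.05 had wildtype signals of 135, 153 and 254. The first and the second, at chromosome 11, 115127734 to 115127902 and 115112361 to 115112523, were lower in 6 of 6 litters, with differences of -0.17 and -0.29, and the third, at 115122066 to 115122267, was higher in 6 of 6 litters, with a difference of 0.24. The lowest adjusted p among the Grin2c probesets was 0.742 (limma).

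Genes that act with the receptor were examined as lists of partners. Of 57 listed genes 51 were measured, and none passed the adjusted test, with a lowest adjusted p of 0.685 (limma). Their median difference was -0.053, against -0.036 for all genes, and 46 of the 51 were negative, against 69.8% of all genes. This general shift depended on the scaling, since after arrays were centred the median of all genes was 0.020 and 23 of the 51 were negative. Centring added the same 0.056 to every gene difference, so counts after centring moved by that shift alone. The distance of the partner median from that of all genes stayed the same. The share of all genes that were negative after centring was not computed. Among the partners, in the values as deposited, 15 of 15 kinases and phosphatases acting on the receptor were negative, with a median of -0.055, as were 7 of 7 genes of glutamate release, uptake and synthesis, with a median of -0.055. After centring these counts were 7 of 15 and 3 of 7, and the mean level of the kinases and phosphatases was higher in the KIS-ko sister in litters 3 and 4, by 0.0007 and 0.057, in the values as deposited. Of the scaffold and trafficking partners 10 of 12 were negative, of the genes of co-agonist synthesis and transport 5 of 6, of the channel-bound calcium and cytoskeletal proteins 5 of 6 and of the downstream signalling genes 4 of 5. After centring these were 3 of 12, 5 of 6, 2 of 6 and 3 of 5. At an unadjusted p under 0.05, 1 of the 51 was lower and 0 were higher, against 4.34% and 1.82% of all genes. The gene was Actn2, an actin-binding alpha-actinin that binds GluN1 and GluN2B, with a gene value of 8.36 ± 0.17 (SD, n = 6) in the wildtype and of 8.22 ± 0.097 (SD, n = 6) in the KIS-ko group. Its difference was -0.14 (SE 0.050), with an adjusted p of 0.685 (limma), and it was lower in 6 of 6 litters. Only 2 of its 26 probesets were above background.

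The genes whose values followed those of Grin1 and Grin2b most closely over the 12 arrays were named by Pearson's r, after array medians and genotype means were subtracted. For Grin1 these were Ttyh1 (r = 0.916), Olfr174 (r = 0.901) and Coro7 (r = 0.895). Olfr174 had a median signal of 20.1, below the median of the intron controls. For Grin2b they were Itsn1 (r = 0.962), Grm7 (r = 0.961), a metabotropic glutamate receptor, and Pi4ka (r = 0.960). Without litter 5, over 10 arrays, these 3 had r of 0.876, 0.893 and 0.906.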

How the data were processed

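Total RNA of 12 newborn female brains was hybridised to Affymetrix Mouse Exon 1.0 ST arrays. The authors normalized the arrays by quantiles in Expression Console and summarized probesets with PLIER, and the deposited values are linear signal intensity; genome build and software versions are not given in the sources used here. Arrays have no read depth, and their number limits the precision. Groups and litters came from the labels.

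Probesets with an SD over 0.4 of the mean in either genotype were left out, as in the study's methods, which kept 205469. Gene values, probeset values and splicing indices (in genes with at least 3 probesets) were fitted with limma 3.58.1 in R 4.3.3 with the litter as a block, as littermates were paired by the study, and p values were adjusted by Benjamini-Hochberg over all features. Probeset 5′ to 3′ order follows the strand. Deviations of littermates from their genotype means correlated at -0.11 to 0.473 (-0.019 between litters on average). The fits were tested on simulated data. Members and lists were chosen with earlier results of these data known. Named were the subunits, Uhmk1, list genes past the adjusted threshold or, in each direction, up to 3 at an unadjusted p under 0.05, 3 genes most correlated with Grin1 and with Grin2b, and subunit probesets at an unadjusted p under 0.05. The low Grin1 probesets and the low Grin2b probeset were chosen after their values were seen. Alternatives changed the pseudocount, filters, scaling, probesets, summary, moderation, block and litters, and leaving out the Grin3b probeset of the opposite strand, and ratios, correlations and litter spreads without a litter, were alternatives chosen after seeing the data. Some marker genes are not reported here.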

Additional observations from a re-analysis of the deposited data

How the results depend on the processing

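No subunit gene, probeset or splicing index was called under any alternative that was run (diffSplice of limma included). The Grin1 and Grin2a differences were negative under 19 of 19 alternatives, Grin2b was positive under 15, Grin2c negative under 17, Grin2d negative under 16 and Grin3b positive under 17. Some of these could not change a sign. Changing the block or the moderation alters only the error, and the opposite-strand probeset enters only Grin3b. Grin1 was also unchanged, at -0.063, with no filter on variation, with the stricter one and with probesets matching 1 place. With dim probesets left out Grin2c was 0.010 and Grin3b, for which only the probeset of the opposite strand remained, -0.028, with arrays centred on medians Grin2c was 0.012 and Grin2d 0.017, and with a new quantile normalization Grin2d was 0.0034. Leaving out each litter in turn gave -0.015 to 0.037 for Grin2b, -0.058 to -0.024 for Grin2c, -0.067 to 0.0096 for Grin2d and -0.031 to 0.088 for Grin3b. With the median over probesets Grin3b was 0.32. The weighted fold change of the methods gave -1.51 for Uhmk1. With no replicate block, so that littermates were not paired, the SE of Grin2b rose to 0.101 from 0.052 (adjusted p = 0.992, limma), and the Grin2a over Grin2b ratio had an exact permutation p of 0.396; it changed no call. Without litter 4, 16 subunit probesets had an unadjusted p under 0.05 in place of 6, and 4017 genes did in place of 1065. Causes of these changes were not tested. Most Grin2c, Grin3b and Grin2a probesets lay at or below background, where the log2(signal + 16) scale understates a change. Replicates are separate animals, 1 array each.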
